A study of Mus musculus with 10 samples.

Results

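Type I interferon-stimulated genes were followed in messenger RNA from peritoneal lavage cells, the leukocytes and shed lining cells washed from the abdominal cavity, of mice made septic by cecal ligation and puncture. The group was fixed by name as 36 genes of the deposited table of 34745 genes, and all 36 were found in it. It holds the interferon gene Ifnb1, the receptor genes Ifnar1 and Ifnar2, the signalling gene Stat2, and 32 genes listed as interferon-stimulated. The series gives 5 libraries labelled AX and 5 labelled NC. Its design text sets mice treated with amlexanox, a small inhibitor of the kinases TBK1 and IKKε, against mice given vehicle. AX was therefore read as amlexanox after cecal ligation and puncture, and NC as vehicle after the same operation, although the labels spell out neither abbreviation. On this reading both groups had sepsis, and the 10 libraries include no group from mice without the operation. The sources used here give no strain, age, dose or time of collection.

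In the textbook pathway, sensors of microbial nucleic acid or lipopolysaccharide lead to TBK1, which switches on Ifnb1. Secreted interferon binds the receptor IFNAR1 and IFNAR2 on the same or a neighbouring cell, and a complex that contains STAT2 then enters the nucleus. There it binds the interferon-stimulated response element of many genes, whose products bind viral RNA, block virus budding or tune the response itself. Macrophages, dendritic cells and neutrophils all carry the receptor, so these mRNAs do not mark a single cell type.

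Total counts ran from 10221170 to 13806885 per library. Levels are given as counts scaled to library size (CPM), a mean with its SD over the 5 libraries of a group. A fold change sets AX over NC on the log2 scale. Of the 36 genes, 35 passed the filter on low counts among 12264 genes tested, and Ifnb1 did not. The 5 pan-leukocyte genes listed had counts in every library but were uneven. Cd53 was the steadiest of them, at 879 to 1374 CPM. Ptprc (CD45) stood at 22.4 CPM in AX 8, 374 to 1028 CPM in the other AX libraries and 355 to 1179.9 CPM in NC. Tyrobp was also lowest in AX 8, with 76.0 CPM. Laptm5 and Coro1a instead peaked in that library, with 1683 and 475 CPM, and were lowest in AX 6, with 181 and 210 CPM. AX 6 and NC 1 stood apart by 10 markers of mesothelium and stroma, the cells that line the cavity, whose summed level was 4567 CPM in AX 6 and 1985 CPM in NC 1. It was 389.5 to 933 CPM in the other AX libraries and 301 to 763 CPM in the other NC libraries. In bulk RNA of mixed cells, fewer cells of a type and less RNA per cell cannot be told apart.

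Promoters of the group are shown because many of these genes carry the same short control sequence. RefSeq windows of 300 bases on GRCm38.p6, from 250 before to 50 after the start site, were matched by symbol for 27 of the 36 genes. They were searched on both strands for GAAA NN GAAA (N is any base), the core of the interferon-stimulated response element, and overlapping matches were counted. The motif was present in 15 of 27 genes (55.6%), against 1079 of 27025 genes in the whole RefSeq table (3.99%) and 1131 of 32851 windows (3.44%). The windows of 5 genes on which the results turn run 5′ to 3′ along each gene's own strand, with the motif in capitals on whichever strand it lies.
Isg15, chr4:156200769-156201068, minus strand: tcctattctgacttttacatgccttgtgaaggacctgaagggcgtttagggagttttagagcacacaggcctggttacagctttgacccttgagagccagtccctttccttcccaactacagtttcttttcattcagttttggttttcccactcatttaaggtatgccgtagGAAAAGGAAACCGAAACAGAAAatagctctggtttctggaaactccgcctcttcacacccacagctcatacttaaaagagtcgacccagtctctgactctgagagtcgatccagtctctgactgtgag
Ifit1, chr19:34640639-34640938, plus strand: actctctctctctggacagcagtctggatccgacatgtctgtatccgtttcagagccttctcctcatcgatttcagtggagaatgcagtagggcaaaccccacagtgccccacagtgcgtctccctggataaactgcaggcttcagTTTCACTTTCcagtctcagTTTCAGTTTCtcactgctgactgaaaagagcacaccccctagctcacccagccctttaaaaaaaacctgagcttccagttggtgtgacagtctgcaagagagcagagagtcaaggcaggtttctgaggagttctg
Rsad2, chr12:26456403-26456702, minus strand: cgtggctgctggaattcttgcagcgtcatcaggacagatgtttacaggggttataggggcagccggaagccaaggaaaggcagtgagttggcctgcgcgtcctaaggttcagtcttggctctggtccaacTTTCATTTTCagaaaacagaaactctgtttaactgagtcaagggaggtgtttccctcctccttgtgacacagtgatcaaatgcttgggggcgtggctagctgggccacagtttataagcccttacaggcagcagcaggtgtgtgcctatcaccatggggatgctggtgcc
Ifi205, chr1:174031706-174032005, minus strand: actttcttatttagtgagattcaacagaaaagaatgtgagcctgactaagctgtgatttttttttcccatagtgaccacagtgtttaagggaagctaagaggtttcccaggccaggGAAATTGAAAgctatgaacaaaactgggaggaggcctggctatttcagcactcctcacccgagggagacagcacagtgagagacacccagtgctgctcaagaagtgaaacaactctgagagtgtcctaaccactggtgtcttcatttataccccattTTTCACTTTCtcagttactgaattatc
Ddx58, chr4:40239776-40240075, minus strand: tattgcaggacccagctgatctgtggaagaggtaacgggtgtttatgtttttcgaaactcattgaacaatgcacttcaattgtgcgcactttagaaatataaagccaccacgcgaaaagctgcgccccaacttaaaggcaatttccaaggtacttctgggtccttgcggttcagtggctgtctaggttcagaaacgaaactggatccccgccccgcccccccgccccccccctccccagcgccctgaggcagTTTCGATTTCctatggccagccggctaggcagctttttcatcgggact
Isg15 held 3 overlapping copies that began 78, 72 and 66 bases before the start. Ifit1 held 2 copies on the opposite strand, 104 and 85 bases before it, and Rsad2 held 1 at 120 bases. In Ifi205 a copy lay 134 bases before the start and another after it, and in Ddx58 the single copy lay just after the start. Ifit3 and Ifit3b, neighbours on chromosome 19, carried the same pair of matches in the same order. No match was found in the windows of Ifnb1, Ifnar1, Ifnar2, Ifit2, Isg20, Oasl1, Oasl2, Ifi44, Ifi47, Xaf1, Cmpk2 and Herc6.

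The ligand was almost undetectable while its receptor was plentiful. Ifnb1, which encodes interferon beta (ENSMUSG00000048806, chromosome 4 from 88522025 to 88522774 of mm10), had 9, 0, 0, 1 and 0 counts in AX 6 to AX 10, and 13, 3, 0, 1 and 3 counts in NC 1 to NC 5. Of the 10 counts in AX, 9 lay in AX 6, and of the 20 in NC, 13 lay in NC 1, the library of each group with the most mesothelial and stromal RNA. On library totals, a count of 0 allows up to 0.253 CPM in AX 7, 0.271 CPM in AX 8, 0.235 CPM in AX 10 and 0.254 CPM in NC 3. The group means of 0.169 CPM in AX and 0.333 CPM in NC gave p = 0.484 in an exact two-sided permutation test (n = 5 each), which cannot go below 0.00794. None of the 20 interferon ligand genes listed, most of them of the alpha family, passed the filter, and 13 had no count in any library.

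Ifnar1 and Ifnar2, the subunits of the type I interferon receptor, were among the steadier genes. Ifnar1 had 113, 177, 82.3, 201 and 165 CPM in AX 6 to AX 10, against 117, 234, 179, 204 and 132 CPM in NC 1 to NC 5. AX 8 held the lowest value of the 10 libraries and the groups overlapped. Ifnar2 stood at 146 ± 11.4 CPM over AX and 149 ± 35.97 CPM over NC, and its highest library exceeded its lowest by 1.796-fold, the narrowest range among the 35 genes tested. Log2 fold changes were -0.23 ± 0.28 (SE) for Ifnar1 and -0.03 ± 0.19 (SE) for Ifnar2. Stat2, the signal transducer dedicated to the interferon receptor, had 29.9, 50.5, 113, 53.5 and 90.5 CPM in AX 6 to AX 10, against 68.3, 62.5, 47.4, 79.4 and 62.8 CPM in NC 1 to NC 5. Its extremes were both in AX, the lowest in AX 6 and the highest in AX 8, and its log2 fold change was 0.07 ± 0.32 (SE). Per length, Ifnar2 averaged 24.2 FPKM over the 10 libraries, Ifnar1 16.8 FPKM, Stat2 14.6 FPKM and Ifnb1 0.349 FPKM.

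The interferon-induced genes spanned a wide range of levels per length, with 4 of the 36 genes above 50 FPKM on average and 12 below 5 FPKM. The most abundant were Bst2 at 171 FPKM, which encodes the virus tether tetherin, and Isg15 at 144 FPKM, which encodes a ubiquitin-like modifier. Trim30a, a negative regulator of Toll-like receptor signalling, averaged 54.03 FPKM, and Rtp4, a chaperone-like protein with antiviral activity, 50.2 FPKM. The antiviral GTPase genes Mx1 and Mx2 lay near the bottom, at 1.42 and 1.14 FPKM, with Ifi44 at 0.776 FPKM. Many common laboratory mouse strains carry a defective Mx1, and the strain is not given here.

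**Figure D1:**
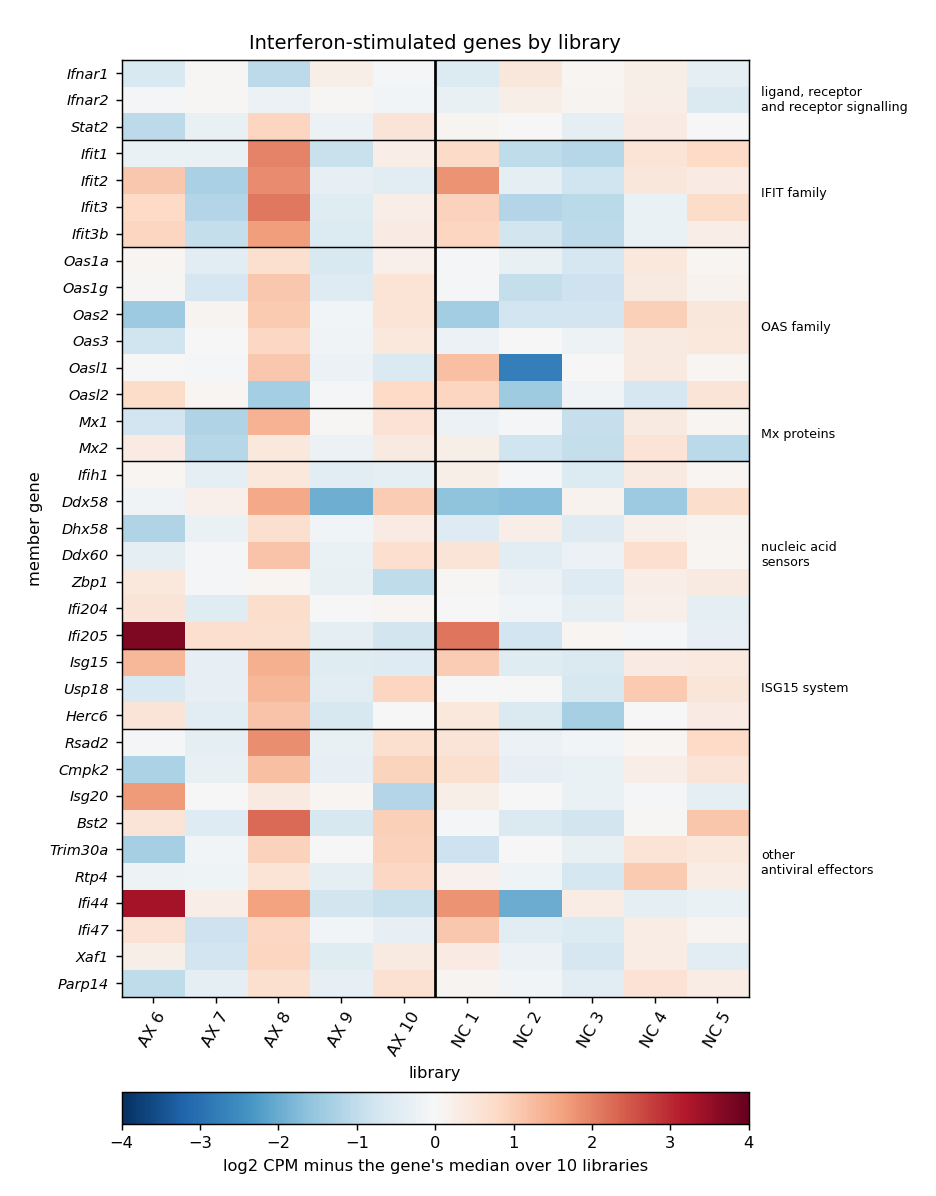
Each cell shows a gene's log2 CPM in a library minus that gene's median over the 10 libraries, for the 35 genes tested, with AX libraries left of the line and NC libraries right of it. AX 8 is red in most rows, and AX 6 and NC 1 are darkest for Ifi205 and Ifi44.

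A single library, AX 8, carried the top value for most of the group. It was highest of the 10 libraries for 24 of the 35 genes tested, where it was highest for 1283 of all 12264 genes (10.5%). With CPM on library totals in place of the scaled CPM, AX 8 was still highest for 19 of the 35. The share over all genes was not worked out on library totals. In AX 8, 17 genes lay at least 2-fold above their own median over the libraries and 2 lay at least 2-fold below. The median deviation of the 35 genes from their own medians was 0.92 on the log2 scale in AX 8. It was 0.03, -0.31, -0.32 and 0.33 in AX 6, AX 7, AX 9 and AX 10, and 0.23, -0.33, -0.53, 0.31 and 0.26 in NC 1 to NC 5. The same median over all genes tested stayed between -0.02 and 0.01 in every library.

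With scaled CPM, the other extreme was shared by several libraries: AX 7 was lowest for 8 genes (3.81% of all genes tested), AX 6 for 7 (23.4% of all), NC 3 for 9 (7.60% of all) and NC 2 for 6 (8.28% of all). This sharing depended on the scaling. On library totals NC 3 was lowest for 13 of the 35, AX 6 for 8, AX 7 for 4 and NC 2 for 2. These counts also lack the share over all genes on library totals, so they cannot be read as a trait of the group. For 16 of the 35 genes, both the highest and the lowest library by scaled CPM were in AX. Across the 10 libraries the highest level exceeded the lowest by a median of 4.19-fold, and by 115-fold in Ifi44. The SD of log2 CPM over the 10 libraries had a median of 0.71 in the 35 genes, beside 0.46 over all genes tested. Of 18 genes that were highest in AX 8 by scaled CPM and had a promoter window, 14 held the motif, as did 1 of the 8 other tested genes with a window, Ifi205. Those 8 include the receptor genes Ifnar1 and Ifnar2. Among the 14, Ifit3 and Ifit3b carry the same matches, as do Oas1a and Oas1g. Among other interferon-stimulated genes, listed below, 17 of the 40 with a window held the motif. The split was made on the same levels that define the AX 8 pattern. The motif's share among all genes highest in AX 8 was not worked out. A link between the motif and the level in AX 8 was not tested.

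Other measures of the libraries moved with this pattern in part. AX 8 had the fewest genes with at least 10 counts, 11865, beside 11923 to 12851 in the other libraries. Its scaling factor, 0.865, was also the lowest, beside 0.911 to 1.14. Ptprc, at 22.4 CPM in AX 8, was lower there than in any other library. The part of these measures in the AX 8 pattern was not tested. Mitochondrially encoded genes took 18.6% of the counts of AX 8, second to AX 10 at 20.1%. The 4 libraries in which the group's median deviation was below 0 (AX 7, AX 9, NC 2 and NC 3) had mitochondrial shares of 4.47% to 8.46%, and the 6 others had 8.74% to 20.1%. The part of mitochondrial share, and of the cells or RNA behind it, in the level of these genes was not tested. The summed level of 10 neutrophil markers was 11621 CPM in AX 8, 5863 to 9673 CPM in the other AX libraries, and 5749.6 to 11153 CPM in NC, with no marker of the list at 0. S100a9 made up 7876 CPM of the sum in AX 8. The other 9 neutrophil markers summed to 3745 CPM there, 2645 to 5157 CPM in the other AX libraries and 3001 to 6103 CPM in NC, so AX 8 was not the highest library without S100a9. Mesothelial and stromal markers summed to 759.9 CPM there, below AX 6, NC 1, AX 7 and NC 3. The 6 markers of plasmacytoid dendritic cells, a strong source of type I interferon, summed to 116 CPM in AX 8, 72.2 to 106 CPM in the other AX libraries and 78.6 to 115 CPM in NC. Most of that sum was Irf8, which other myeloid cells also express, and Siglech, a defining marker of these cells, was at 0 in all 10 libraries.

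**Figure D2:**
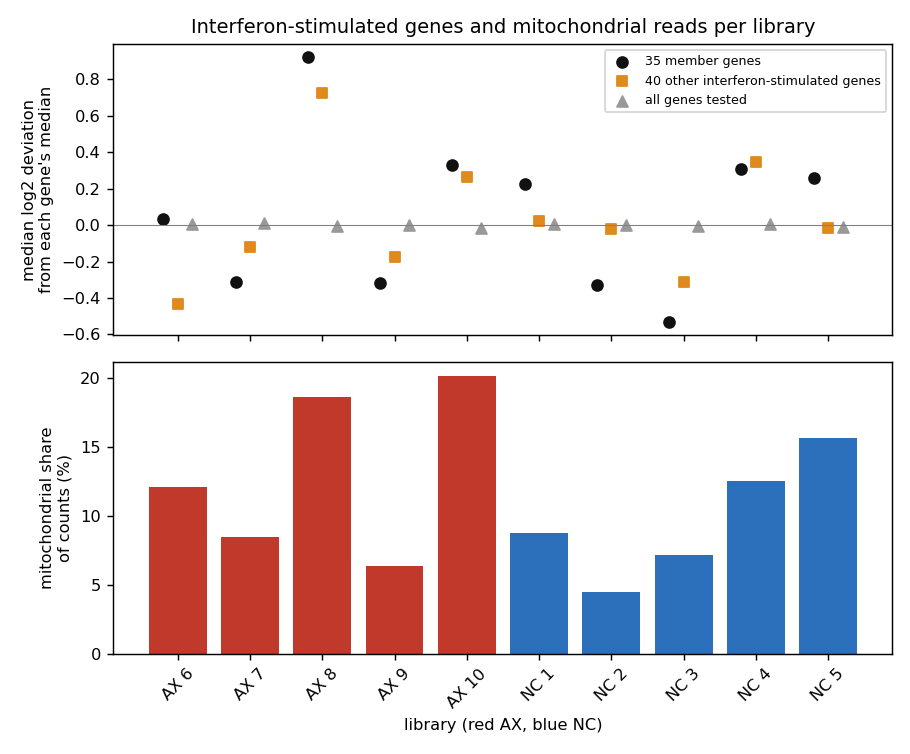
The upper panel shows for each library the median log2 deviation from each gene's own median over 10 libraries, for the 35 interferon-stimulated genes tested, 40 other interferon-stimulated genes and all 12264 genes tested. The lower panel shows the mitochondrial share of counts in percent, which lay between 4.47% and 8.46% in the 4 libraries with a deviation below 0 for the 35 genes.

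The IFIT proteins, which bind viral RNA lacking the host cap, were encoded by 4 genes of the group, all highest in AX 8. Ifit1 (ENSMUSG00000034459, chromosome 19 from 34640871 to 34650009 of mm10) had 37.4, 37.96, 182, 24.4 and 54.1 CPM in AX 6 to AX 10, against 76.7, 22.3, 20.4, 66.6 and 78.4 CPM in NC 1 to NC 5. AX 8 was more than 2-fold above every other library, and the remaining AX values lay inside the NC range. Ifit2 had 18.1, 3.15, 32.6, 6.63 and 6.003 CPM in AX 6 to AX 10, against 30.1, 6.34, 4.65, 11.7 and 10.6 CPM in NC 1 to NC 5. Here AX 8 and NC 1 were nearly level and AX 6 was next. Ifit3 had 28.4, 6.95, 71.6, 11.4 and 19.5 CPM in AX 6 to AX 10, against 30.9, 6.98, 7.35, 13.4 and 27.4 CPM in NC 1 to NC 5, with AX 8 again the highest. Log2 fold changes were 0.35 ± 0.59 (SE), 0.06 ± 0.67 (SE) and 0.68 ± 0.64 (SE) for Ifit1, Ifit2 and Ifit3, and without AX 8 they became -0.46, -0.59 and -0.06. Ifit3b, with a log2 fold change of 0.64 ± 0.57 (SE), was also highest in AX 8, but 51.2% of the 50-base words in Ifit3 transcripts also occur in Ifit3b, so the split of reads between them is uncertain.

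The ISG15 system was uniformly high in AX 8 and mixed in AX 6. Isg15 (ENSMUSG00000035692, chromosome 4 from 156199424 to 156200818 of mm10) had 207, 65.9, 223, 59.9 and 57.6 CPM in AX 6 to AX 10, against 169, 59.8, 55.7, 105 and 109 CPM in NC 1 to NC 5. AX 6, AX 8 and NC 1 were high and the other libraries formed a lower set that held members of both groups. Usp18, the protease that removes ISG15 and damps the receptor, had 31.99, 38.6, 123, 36.7 and 88.3 CPM in AX 6 to AX 10, against 48.1, 49.8, 31.4, 102 and 69.1 CPM in NC 1 to NC 5. AX 8 and NC 4 were highest, while AX 6 was among the lowest. Herc6, the mouse ligase that attaches ISG15, stood at 22.03 ± 11.99 CPM over AX and 17.1 ± 7.497 CPM over NC. The log2 fold changes were 0.30 ± 0.47 (SE) for Isg15, 0.08 ± 0.43 (SE) for Usp18 and 0.36 ± 0.42 (SE) for Herc6, and without AX 8 they were -0.04, -0.29 and 0.01.

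**Figure D3:**
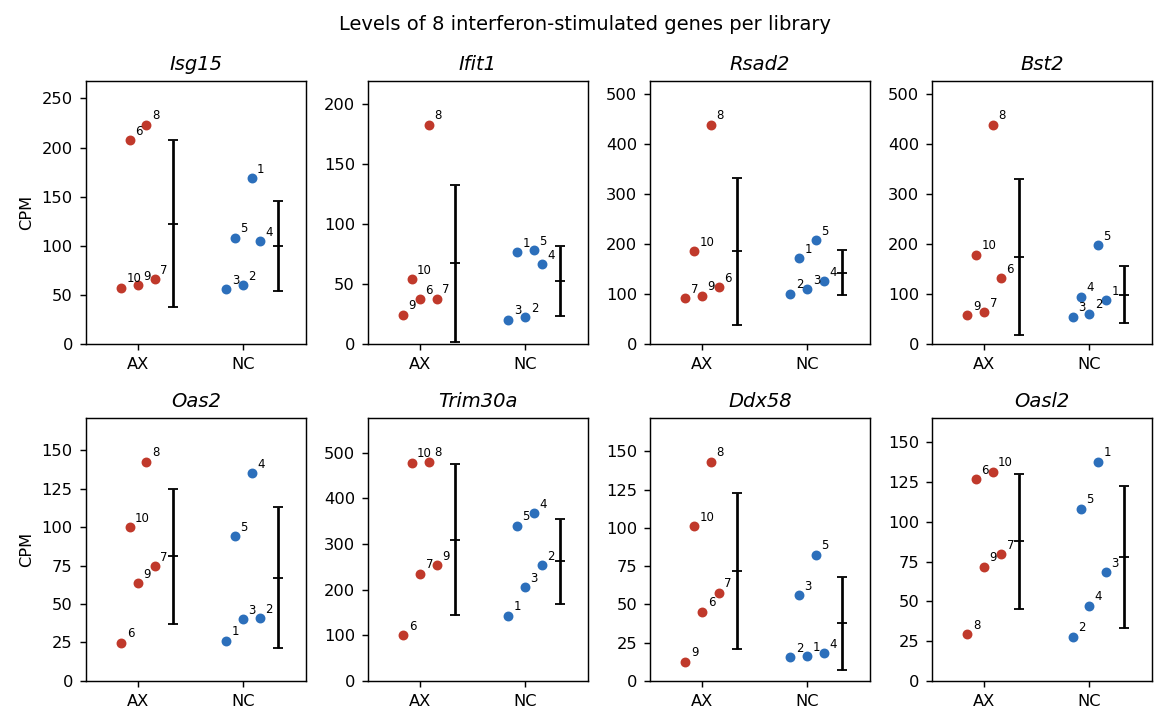
Points show the CPM of 8 genes in each library, numbered as in the labels, with AX in red and NC in blue, and black bars give the group mean ± SD of 5 libraries. AX 8 is the top point in all panels except Oasl2, where it lies at 29.2 CPM, near NC 2 at 27.9 CPM.

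Among other effectors, Rsad2 and Bst2 were more than 2-fold higher in AX 8 than in any other library. Rsad2, which encodes viperin, an enzyme that makes a chain-terminating nucleotide (ENSMUSG00000020641, chromosome 12 from 26442753 to 26456452 of mm10), had 113, 91.5, 437, 96.7 and 186 CPM in AX 6 to AX 10, against 171, 100.5, 109.9, 125 and 208 CPM in NC 1 to NC 5. Apart from AX 8, the highest values were in NC 5 and AX 10, while AX 7 and AX 9 lay below every NC library. The log2 fold change, 0.37 ± 0.44 (SE), was -0.23 without AX 8. Cmpk2, the nucleotide kinase encoded next to Rsad2, stood at 30.3 ± 19.95 CPM over AX and 28.4 ± 8.495 CPM over NC. Bst2 had 131, 63.8, 438, 57.96 and 179 CPM in AX 6 to AX 10, against 87.5, 60.7, 55.1, 94.8 and 197 CPM in NC 1 to NC 5, so that AX 8 and NC 5 led their groups. Its log2 fold change of 0.81 ± 0.56 (SE) had the smallest unadjusted p of the 35 genes, 0.177, with an adjusted p of 0.9999 in edgeR's quasi-likelihood test, and became 0.12 without AX 8. Isg20, an exonuclease of RNA, instead peaked in AX 6, with 50.6, 15.2, 19.5, 15.9 and 6.49 CPM in AX 6 to AX 10, against 17.9, 15.2, 12.7, 14.4 and 11.5 CPM in NC 1 to NC 5.

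OAS proteins make the oligoadenylate messenger that activates RNase L, and their genes, all on chromosome 5, split into several patterns. Oas2 had 24.8, 74.4, 143, 63.5 and 99.9 CPM in AX 6 to AX 10, against 25.99, 40.7, 40.1, 135 and 94.05 CPM in NC 1 to NC 5. The highest libraries were AX 8 and NC 4 and the lowest AX 6 and NC 1. Oas3 and Oas1a had narrower ranges with AX 8 highest as well, at 95.7 ± 39.2 CPM over AX and 91.1 ± 20.1 CPM over NC for Oas3 and 91.5 ± 32.3 CPM over AX and 84.9 ± 23.7 CPM over NC for Oas1a. Oas1a shares 57.6% of its 50-base words with Oas1g, and Oas1g 45.2% with Oas1a, so the levels of both, and the log2 fold changes of 0.11 ± 0.27 (SE) for Oas1a and 0.42 ± 0.39 (SE) for Oas1g, are uncertain. The OAS-like genes differed: Oasl2 had 127, 79.5, 29.2, 71.7 and 132 CPM in AX 6 to AX 10, against 138, 27.9, 68.5, 47.3 and 108 CPM in NC 1 to NC 5, and AX 8 was among its lowest libraries. Oasl1 had 34.8, 34.3, 75.1, 30.3 and 23.6 CPM in AX 6 to AX 10, against 82.6, 4.87, 36.1, 45.5 and 37.7 CPM in NC 1 to NC 5, with NC 1 and AX 8 the highest and NC 2 far below all others. For the antiviral GTPases, Mx1 stood at 8.71 ± 6.49 CPM over AX and 6.47 ± 2.05 CPM over NC and Mx2 at 6.48 ± 2.55 CPM over AX and 5.199 ± 3.06 CPM over NC.

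Sensors of nucleic acid were uneven among themselves. Ddx58, which encodes the RNA sensor RIG-I (ENSMUSG00000040296, chromosome 4 from 40203773 to 40239828 of mm10), had 45.3, 57.6, 143, 12.5 and 101 CPM in AX 6 to AX 10, against 16.2, 15.3, 55.8, 18.01 and 82.4 CPM in NC 1 to NC 5. Its values lay in a low set of 12.5 to 18.0 CPM (AX 9, NC 1, NC 2 and NC 4) and a high set of 45.3 CPM or more, with libraries of both groups in each. Its log2 fold change of 0.94 ± 0.65 (SE) had a 95% interval from -0.50 to 2.38. The related sensor gene Ifih1 (MDA5) showed no such split, at 45.1 ± 12.8 CPM over AX and 50.1 ± 11.3 CPM over NC, and the regulator Dhx58 (LGP2) stood at 29.8 ± 13.04 CPM over AX and 28.8 ± 7.46 CPM over NC. Ddx60, a helicase linked to RIG-I signalling, stood at 12.2 ± 6.13 CPM over AX and 10.97 ± 3.696 CPM over NC. Zbp1, a sensor of Z-form nucleic acid that triggers necroptosis, stood at 59.04 ± 19.99 CPM over AX and 64.3 ± 15.5 CPM over NC, with the highest level in AX 6 and the lowest in AX 10.

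AX 6 held the highest level for Ifi205, Ifi44, Isg20 and Zbp1, 4 of the 35 genes (11.4%), beside 25.8% of all genes tested. It held the lowest for Stat2, Oas2, Oas3, Dhx58, Cmpk2, Trim30a and Parp14, 7 of the 35 (20%), beside 23.4% of all genes tested. Both shares were below those over all genes. Ifi205, a p200-family DNA-binding protein (ENSMUSG00000054203, chromosome 1 from 174011998 to 174031810 of mm10), had 978, 118, 114, 57.4 and 43.7 CPM in AX 6 to AX 10, against 328, 43.1, 78.2, 68.9 and 58.3 CPM in NC 1 to NC 5. AX 6 and NC 1 stood far above all other libraries. They also stood above them in mesothelial and stromal markers, of which Dcn and Msln were 2504 and 821 CPM in AX 6 and 914 and 206 CPM in NC 1. The log2 fold change of Ifi205 was 1.18 ± 0.90 (SE), and without AX 6 it was -0.47. Ifi44 had 29.5, 3.15, 8.67, 1.31 and 1.14 CPM in AX 6 to AX 10, against 9.93, 0.256, 3.16, 1.801 and 1.98 CPM in NC 1 to NC 5, with AX 6, NC 1 and AX 8 highest, and its log2 fold change, 1.35 ± 1.01 (SE), was 0.05 without AX 6 and 2.29 without NC 1. Ifi204, a relative of Ifi205 that senses DNA, did not follow it, at 203 ± 63.4 CPM over AX and 161 ± 29.1 CPM over NC, although each shares part of its 50-base words with Ifi211 (14.8% for Ifi204 and 18.5% for Ifi205). All 10 mesothelial and stromal markers had a count in every library and a higher fitted level in AX, beside 53.6% of all genes tested. Of these markers 0 were called, beside 0% of all genes. Their sum was 4567 CPM in AX 6 and 389.5 to 933 CPM in the other AX libraries. It averaged 1432 ± 1765 CPM over AX and 795 ± 685.5 CPM over NC (p = 0.548, exact two-sided permutation test). The part of lining cells in these levels was not tested.

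**Figure D4:**
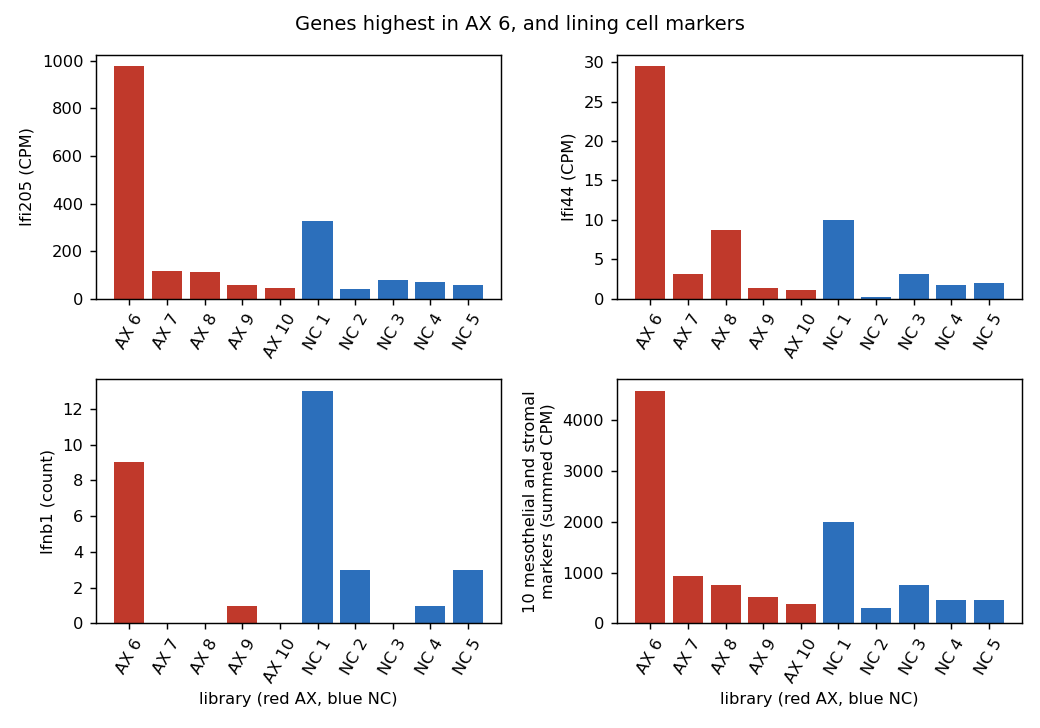
Bars show, per library with AX in red and NC in blue, the CPM of Ifi205 and Ifi44, the raw counts of Ifnb1, and the summed CPM of 10 markers of mesothelium and stroma. AX 6 and NC 1 hold the highest bar of their group in all 4 panels.

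Among the genes lowest in AX 6 were Trim30a and Parp14. Trim30a had 100.4, 235, 481, 254 and 478 CPM in AX 6 to AX 10, against 143, 253, 206, 367 and 340.4 CPM in NC 1 to NC 5. AX 8 and AX 10 were highest and AX 6 and NC 1 lowest. Parp14, an ADP-ribosyltransferase, stood at 183 ± 85.9 CPM over AX and 193 ± 50.01 CPM over NC, with its lowest level, 87.8 CPM, in AX 6. Rtp4 stood at 78.3 ± 29.97 CPM over AX and 80.6 ± 37.9 CPM over NC, with NC 4 and AX 10 highest. Xaf1, a pro-apoptotic binding partner of XIAP, stood at 24.8 ± 10.98 CPM over AX and 20.9 ± 6.54 CPM over NC, and Ifi47, an immunity-related GTPase that interferon gamma also induces, at 22.3 ± 10.3 CPM over AX and 23.7 ± 11.9 CPM over NC.

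Between AX and NC none of the genes passed the test. In edgeR's quasi-likelihood test with Benjamini-Hochberg adjustment over 12264 genes, 0 of the 35 genes had an adjusted p under 0.05, beside 0 of all genes tested (0%), and the smallest adjusted p in the group was 0.9999. With p unadjusted, 0 of 35 lay under 0.05, beside 113 of all genes tested (0.921%). DESeq2 called 0 of the 34 for which it gave an adjusted p (it gave none for Ifi205), and limma-voom 0 of the 35, beside 0% of all genes in each. The AX and NC values did not separate for any of the 35, beside 17 of all genes tested (0.139%), and on library totals beside 0.0978% of genes. Of the 35 genes, 27 had a fitted level higher in AX and 8 lower, beside 53.6% higher over all genes tested. Scaled to library totals alone, 21 were higher and 14 lower, beside 43.2% higher over all genes, and in limma-voom 23 were higher and 12 lower, beside 49.5%. The median log2 fold change was 0.24 in the group and 0.02 over all genes tested.

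That lean towards AX rested on AX 8. Without it, 14 of the 35 genes were higher and 21 lower in AX, and the median log2 fold change was -0.06. Under the other single-library omissions between 21 and 30 of the 35 were higher, with medians from 0.13 to 0.37. Without AX 6 and NC 1 together, 31 were higher and 4 lower, with a median of 0.31. The precision of single genes was limited: the median SE of a log2 fold change was 0.43 in the group and 0.32 over all genes tested. All 35 95% intervals included 0. For 21 genes the interval reached a level 2-fold higher in AX or beyond, and for 2 genes, Ifit2 and Oasl1, a level 2-fold lower, so a change of that size could not be told from none with these libraries. The narrowest interval was that of Ifnar2, from -0.44 to 0.38 on the log2 scale.

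**Figure D5:**
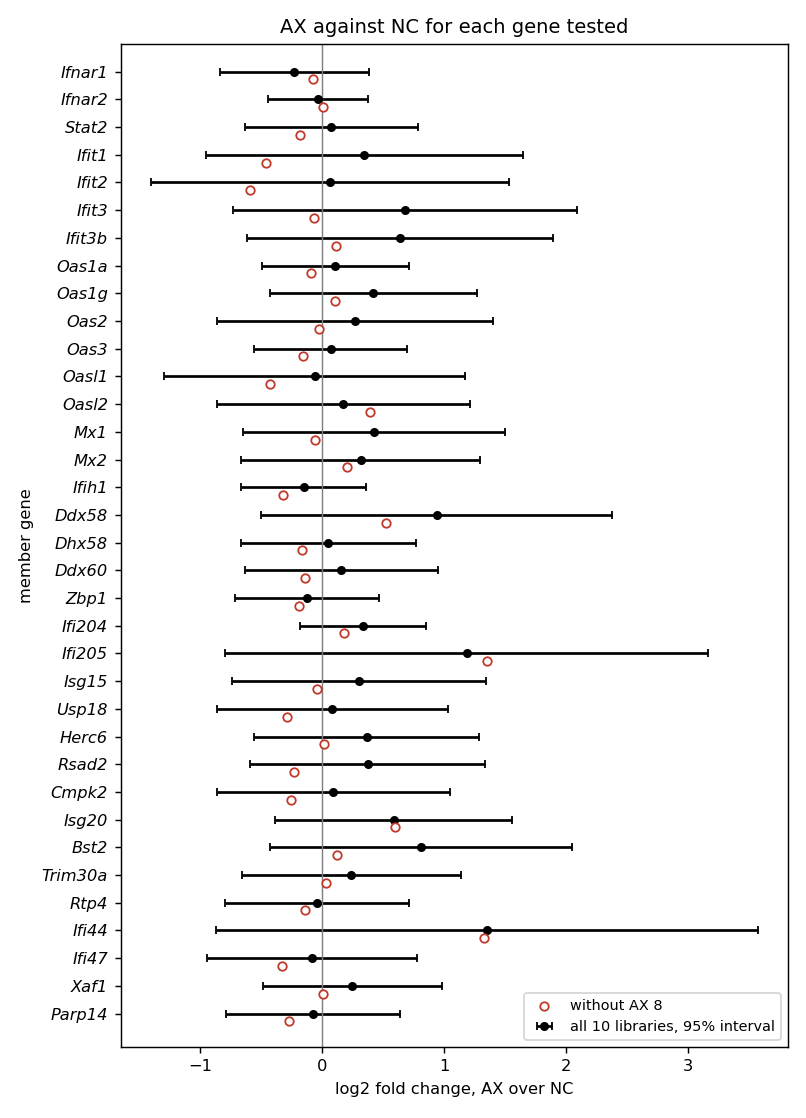
Black points give the log2 fold change of AX over NC for each of the 35 genes tested, with 95% intervals from edgeR, and open red points the same value without AX 8. All intervals cross 0, and without AX 8 the values lie on both sides of 0, with 14 above and 21 below.

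Genes around the pathway, listed separately from the 36, were described in the same way. Of 44 other interferon-stimulated genes 40 were tested, of which 32 had higher and 8 lower fitted levels in AX (median log2 fold change 0.15), and 0 passed in either direction. AX 8 was highest for 19 of these 40 and their median deviation there was 0.73, while in AX 6 it was -0.43 and AX 6 was lowest for 14 (35%, beside 23.4% of all genes tested). Without AX 8, 18 of the 40 were higher and their median was -0.06. The smallest p in this list belonged to Trafd1, a brake on innate signalling, at 90.2 ± 28.1 CPM over AX and 62.6 ± 23.9 CPM over NC, followed by the p200-family gene Mndal at 36.9 ± 18.8 CPM over AX and 23.5 ± 9.42 CPM over NC.

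Of 11 mediators downstream of the receptor 8 were higher and 3 lower (median 0.05) and 0 passed. Ube2l6, the ISG15-conjugating enzyme, stood at 85.1 ± 60.5 CPM over AX and 40.6 ± 34.6 CPM over NC. It was 190 CPM in AX 8, 39.97 to 83.3 CPM in the other AX libraries and 13.9 to 98.5 CPM in NC. Of 16 sensors and adaptors upstream of Ifnb1, 6 were higher and 10 lower (median -0.03) and 0 passed. The double-stranded RNA receptor gene Tlr3 stood at 2.57 ± 1.66 CPM over AX and 1.204 ± 0.683 CPM over NC. Its counts were low, from 4 to 53, with 5.53 CPM in AX 8 and 1.70 to 1.91 CPM in the other AX libraries. The transcription factor gene Irf3 stood at 26.5 ± 5.04 CPM over AX and 33.7 ± 7.24 CPM over NC. Of 10 type II interferon genes 8 were tested, 5 higher and 3 lower (median 0.06), with 0 called and AX 8 highest for 1 of the 8. Gbp2, a GTPase that responds strongly to interferon gamma, stood at 221 ± 229 CPM over AX and 118 ± 80.5 CPM over NC. AX 6 held 618 CPM of Gbp2, and the other 4 AX libraries averaged 122 ± 66.7 CPM. In NC it was highest in NC 1, at 254 CPM, with 51.6 to 126 CPM in the other NC libraries. Ifng, which did not pass the filter, had 41 counts in AX 6, 21 in NC 1 and 1 to 11 in each other library. AX 6 was highest for 3 of the 8 tested genes of this list, beside 25.8% of all genes tested. Irgm1 was highest in NC 1 (97.5 CPM) and Igtp in AX 8 (66.8 CPM), against 56.9 and 40.2 CPM in AX 6. Ifngr2 was lowest in AX 6, at 110 CPM. The part of interferon gamma in the levels of AX 6 and NC 1 was not tested. Marker sums overlapped between the groups: the large peritoneal macrophage list summed to 147 to 334 CPM in AX and 93.9 to 247 CPM in NC, and the neutrophil list to 5863 to 11621 CPM in AX and 5749.6 to 11153 CPM in NC.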

How the data were processed

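Polyadenylated RNA of the lavage cells was made into 10 libraries with a VAHTS Universal V6 kit, per the labels' protocols. Reads were aligned with HISAT2 2.0.4 to mm10, per the submitters' processing notes, while the counting tool, annotation and strand setting were not stated. The deposited table holds raw counts and FPKM per gene and library, and its FPKM follow from the counts, a gene length and the library total within a relative gap of 1.69e-05. The counts were filtered with filterByExpr, scaled by TMM and tested with edgeR 4.0.16 (quasi-likelihood, Benjamini-Hochberg over 12264 genes) in R 4.3.3, with intervals at 95%. DESeq2 1.42.0, limma 3.58.1, other scalings and filters, and omitted libraries were alternatives. The deposited FPKM served to compare levels between genes and, as log2(FPKM + 1) and log2(FPKM + 0.1), as an alternative test. A floor of 3 counts bounds a count of 0, and covers counting error only. Every gene of the group was named, and of each other list at most 4 genes with the smallest p. Ifng, which was not tested, and marker genes (Cd53, Ptprc, Tyrobp, Laptm5, Coro1a, S100a9, Irf8, Siglech, Dcn and Msln) were chosen after their values were seen. The members and lists were chosen with earlier results of these data known. The labels do not say whether libraries came from separate animals, so each p-value reflects spread among the samples alone, part of which may be technical. No pair of the 10 libraries, within or between groups, had counts as close as sampling alone would leave them (chi-square over its degrees of freedom, 38.6 to 302). Of the 36 genes, 8 share exon bases with another annotated gene in GENCODE M21, and their counts are uncertain to that extent. The scripts were tested on simulated data.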

Additional observations from a re-analysis of the deposited data

Results flagged for a closer look

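In 12 of 74 sets of 5 libraries examined, 1 library lay far from the other 4 by Dixon's criterion, applied to CPM without logarithms. Every flagged library was the highest of its set. The criterion's rate of about 1 in 20 holds for independent sets of normally distributed values. The sets here share the same libraries and CPM need not be normal, so 12 of 74 cannot be set against that rate. AX 6 was far above the other AX libraries for Ifnb1 (0.780 CPM, others 0 to 0.0656 CPM), Ifi44 (29.5 CPM, others 1.14 to 8.67 CPM), Ifi205 (978 CPM, others 43.7 to 118 CPM) and the summed mesothelial and stromal markers (4567 CPM, others 389.5 to 933 CPM). AX 8 was far above the other AX libraries for Ifit1 (182 CPM, others 24.4 to 54.1 CPM), Rsad2 (437 CPM, others 91.5 to 186 CPM) and Oasl1 (75.1 CPM, others 23.6 to 34.8 CPM). NC 1 was far above the other NC libraries for Ifnb1 (1.12 CPM, others 0 to 0.270 CPM), Ifit2 (30.1 CPM, others 4.65 to 11.7 CPM), Ifi205 (328 CPM, others 43.1 to 78.2 CPM) and the mesothelial and stromal markers (1985 CPM, others 301 to 763 CPM). NC 5 was far above the other NC libraries for Bst2 (197 CPM, others 55.1 to 94.8 CPM). The cause of these single-library values was not tested.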

How the results depend on the processing

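Over 697 alternatives for single genes, 597 kept the direction, 100 changed sign and 0 were called. Oas1g, Mx2, Ifi204, Ifih1, Ddx58, Trim30a and Bst2 changed sign in none. The number of genes higher in AX, 27 of 35, ran from 14 to 30 with 1 library left out (14 without AX 8) and was 15 without AX 6 and AX 8 together, an alternative chosen after seeing the data. Over all genes the calls ran from 0 to 1 with 1 library left out, and the 1 call came without NC 3. The median of all genes was 0.02 in the fit reported and -0.06 and -0.07 on log2(FPKM + 1) and log2(FPKM + 0.1). Log2 fold changes that changed sign were Stat2 -0.018, Ifit2 -0.13, Oas3 -0.00064, Usp18 -0.016, Dhx58 -0.028 and Cmpk2 -0.015 on library totals, and Ifnar2 0.00060, Stat2 -0.064, Ifit2 -0.16, Oas3 -0.0052, Oasl1 0.30, Usp18 -0.033, Dhx58 -0.054 and Cmpk2 -0.14 in limma-voom. On log2(FPKM + 1) they were Stat2 -0.10, Ifit2 -0.099, Oas3 -0.051, Oasl1 0.093, Usp18 -0.073, Dhx58 -0.069 and Cmpk2 -0.14, and on log2(FPKM + 0.1) Stat2 -0.12, Ifit2 -0.16, Oas3 -0.061, Oasl1 0.19, Usp18 -0.080, Dhx58 -0.092 and Cmpk2 -0.18. Without AX 6 and NC 1 together they were Oasl1 0.40, Ifi47 0.12, Rtp4 0.022 and Parp14 0.098, and without AX 6 and AX 8 together Ifnar1 0.076, Ifnar2 0.025, Ifit1 -0.43, Ifit2 -1.25, Ifit3 -0.43, Ifit3b -0.28, Isg15 -0.69, Isg20 -0.18, Rsad2 -0.18, Oas1a -0.17, Usp18 -0.12, Ifi44 -0.86, Ifi205 -0.65, Xaf1 -0.11, Ddx60 -0.0066 and Herc6 -0.25. With each library left out in turn, the genes that changed sign at least once had the following lowest and highest log2 fold changes: Cmpk2 -0.25 to 0.31, Ddx60 -0.14 to 0.31, Dhx58 -0.17 to 0.24, Ifi205 -0.47 to 2.08, Ifi47 -0.33 to 0.25, Ifit1 -0.46 to 0.56, Ifit2 -0.59 to 0.67, Ifit3 -0.065 to 0.997, Ifnar2 -0.15 to 0.041, Isg15 -0.042 to 0.58, Isg20 -0.0067 to 0.82, Mx1 -0.062 to 0.65, Oas1a -0.094 to 0.25, Oas2 -0.027 to 0.68, Oas3 -0.15 to 0.24, Oasl1 -0.43 to 0.35, Oasl2 -0.044 to 0.48, Parp14 -0.27 to 0.099, Rsad2 -0.23 to 0.55, Rtp4 -0.25 to 0.26, Stat2 -0.18 to 0.26, Usp18 -0.29 to 0.36, Zbp1 -0.30 to 0.034. The cause of these changes was not tested. No paired analysis was possible because the groups share no replicate number (AX has 6 to 10 and NC 1 to 5). With 5 libraries a group, a level 2-fold higher in AX lay inside the 95% interval of 21 genes, and Ifnb1 was limited by its counts.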
